A study of Saccharomyces cerevisiae and Schizosaccharomyces pombe with 8 samples.

Results

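Tandem gene pairs of the fission yeast Schizosaccharomyces pombe were examined for 3' ends that lay beyond the first gene's usual end, in the gap before the second gene or inside that gene. A pair was 2 neighbouring coding genes on the same strand, with 1 to 1000 nt from the stop codon of the first to the start codon of the second and no other gene between. The annotation of 5113 nuclear coding genes held 1407 such pairs, 668 on chromosome I, 514 on chromosome II and 225 on chromosome III. Genes that reached into the gap from outside did not remove a pair, and 229 pairs had no overlapping gene at all. The pairs drew on 2363 genes, 451 of which were the second gene of one pair and the first of another. The stretch from stop to start codon, called the gap here, had a median of 555 nt (quartiles 399.5 and 721, range 8 to 999). For 6 of the 1407 pairs no library held a read in the gap or in the second coding region.

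The study sequenced the 3' ends of polyadenylated RNA in fission and budding yeast, and its title names a comparison of alternative polyadenylation, the use of several cleavage sites per gene. The fission yeast samples were a PCF11 mutant with its wild type, both on minimal medium, and a PAB2 mutant with its wild type, both on rich medium, with 1 library each. The labels name the genotypes only as a PCF11 mutant, a PAB2 mutant and wild type, and give neither the alleles, the strains nor the recipes of the media. The 4 libraries held 3414864, 2702105, 4488357 and 3647664 reads in that order. With 1 library per group no difference has a replicate check, so values are given without a test, and exact binomial (Clopper-Pearson) 95% intervals cover counting error only. Each mutant was set against wild type in its own medium, and these comparisons shared no library.

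A messenger RNA ends where the nascent transcript is cut and given a poly(A) tail. RNA polymerase II then stops transcribing some distance downstream. Pcf11 is a subunit of a cleavage factor that binds the polymerase's tail domain and is needed for cleavage and termination. Pab2 is the nuclear poly(A)-binding protein of fission yeast and works with the nuclear exosome in RNA decay. Where a neighbouring gene follows on the same strand, a polymerase that has not been released can run into it, and its transcript may then be cut in the gap or inside the second gene. A read inside the second coding region may also come from an early end of that gene's own transcript, and the files cannot tell these sources apart.

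The PCF11 library stood apart from the others. Its TMM factor was 0.733, against 1.00 to 1.198, and gap reads made up 12.9% of its nuclear reads, against 19.1% to 21.3%. Reads on the opposite strand of the gaps were 12.4% of both strands in the PCF11 mutant and 2.04% in wild type on minimal medium, and 5.22% in the PAB2 mutant and 1.92% in wild type on rich medium. Their part in the results was not tested. Reads at the targeted genes did not mark the mutants in a simple way. Reads past the stop codon of pcf11 (SPAC4G9.04C) came to 94.5 CPM (read counts scaled to library size, with edgeR's TMM factors) in the PCF11 mutant, against 28.6 CPM in wild type on minimal medium. Those of pab2 (SPBC16E9.12C) came to 37.1 CPM in the PAB2 mutant, against 51.9 CPM in wild type on rich medium. What the mutations leave of either gene is not given, and neither gene belonged to a tandem pair.

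Sequences of 30 bases mark the most used 3' end sites of a pair, and do not show that reads moved between them. For 5 pairs with large changes, the most used site in the gap in wild type on minimal medium is followed by the most used site in the second gene in the PCF11 mutant. In each, the cleavage position is the 15th base, the text runs 5′ to 3′ on the genes' strand, and capitals mark GTA in the 15 bases downstream, a motif of fission yeast 3' ends. The letters are from the RefSeq genome, whose header names ASM294v3, with coordinates as in the files, for which the submitters' processing notes name ASM294v2.
eif21-smg1, gap, II:3421114-3421143, plus strand: ctgattttattgaaagttaaattcaatttg
eif21-smg1, smg1 coding exon, II:3421457-3421486, plus strand: gaaaagtttacggtgttcttcgtggttatg
pby1-icp55, gap, I:4582174-4582203, plus strand: gcgttagcactaaaatttttggatattcag
pby1-icp55, icp55 coding exon, I:4582525-4582554, plus strand: ccacacattttacaacctggtgaatGTAag
cgr1-cdd1, gap, I:3801157-3801186, minus strand: cttttacagtttcaatcttcaactcGTAat
cgr1-cdd1, cdd1 coding exon, I:3800792-3800821, minus strand: acatatatttatggagctaatgGTAaaaag
spo20-rrp6, gap, I:610621-610650, plus strand: ctatattataaaagacctctctatagttgc
spo20-rrp6, rrp6 coding exon, I:611117-611146, plus strand: gtatcggacacattagacatactctttgaa
ani1-meu14, gap, II:4065884-4065913, plus strand: aattttttagaaagagctgtttGTAtgtgt
ani1-meu14, meu14 coding exon, II:4066418-4066447, plus strand: attttcgatcagcaagttaaaagaactatc

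In wild type the reads of a tandem pair lay near the first gene's stop codon and seldom near the second gene. Gap reads numbered 439459 in the PCF11 mutant and 514563 in wild type on minimal medium, and 899879 in the PAB2 mutant and 774632 in wild type on rich medium. Reads from the start to the stop codon of second genes, introns included, numbered 15552 and 15954, and 14774 and 22499, in the same order. The overrun share, which is second-gene coding reads over those plus gap reads, was 3.42% in the PCF11 mutant (3.37% to 3.47%) and 3.01% in wild type on minimal medium (2.96% to 3.05%). On rich medium the share was 1.62% with mutant PAB2 (1.59% to 1.64%) and 2.82% in wild type on rich medium (2.79% to 2.86%). With each gap cut into 3 equal parts, the part nearest the first gene held 57.5% of gap reads in the PCF11 mutant and 73.4% in wild type on minimal medium, and 77.8% in the PAB2 mutant and 78.8% in wild type on rich medium. The part nearest the second gene held 3.91% of gap reads in the PCF11 mutant and 1.70% in wild type on minimal medium. It held 1.68% in the PAB2 mutant and 1.31% in wild type on rich medium.

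Pooled shares lean on a few highly expressed pairs, so pairs were also compared one by one. A total of 348 pairs had at least 100 reads in gap and second coding region in each of the 4 libraries. Their median overrun share was 1.39% in the PCF11 mutant and 0.281% in wild type on minimal medium, and 0.0932% in the PAB2 mutant and 0.587% in wild type on rich medium. At least 10% of the reads lay in the second gene for 43 of the 348 pairs in the PCF11 mutant and 21 in wild type on minimal medium. That number was 14 in the PAB2 mutant and 27 in wild type on rich medium. The PCF11 mutant was thus the highest of the 4 libraries and the PAB2 mutant the lowest in this count. Coding regions of other genes moved the same way. The median share of a gene's own reads inside its coding region was taken where each library had 100 reads. With a divergent upstream neighbour it was 0.674% in the PCF11 mutant and 0.160% in wild type on minimal medium. It was 0.0436% in the PAB2 mutant and 0.351% in wild type on rich medium. For second genes these medians were 1.11%, 0.365%, 0.144% and 0.527%.

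The step at the second start codon is seen in the mean share of a pair's reads per 50 nt. In the 50 nt before the start codon it was 0.257% in the PCF11 mutant and 0.0404% in wild type on minimal medium. It was 0.0525% in the PAB2 mutant and 0.0247% in wild type on rich medium, so both mutants were above their wild type here. In the third bin after the start codon, which begins 100 nt past its first base, it was 0.740% in the PCF11 mutant and 0.151% in wild type on minimal medium, and 0.395% in the PAB2 mutant and 0.166% in wild type on rich medium. In the bin that begins at 350 nt the PAB2 mutant was at 0.0109%, under the 0.0683% of wild type on rich medium, while the PCF11 mutant was at 0.105% and wild type on minimal medium at 0.0548%. In the bins that begin at 50 and 150 nt the PAB2 mutant was also lower, at 0.115% and 0.0991%. Wild type on rich medium was at 0.236% and 0.125% there. Because these are means over pairs, single pairs with a strong site shape some of the bins. The third bin holds the main second-gene sites of eif21-smg1 and cgr1-cdd1, 135 and 132 nt into the coding region, which are described below. The bin that begins at 50 nt held 127 reads in the PAB2 mutant and 342 in wild type on rich medium. Most of them came from nsp1-atg44, whose site 54 nt into the coding region held 88 and 310 reads. The lower PAB2 value in that bin was thus mainly that of 1 pair.

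**Figure D1:**
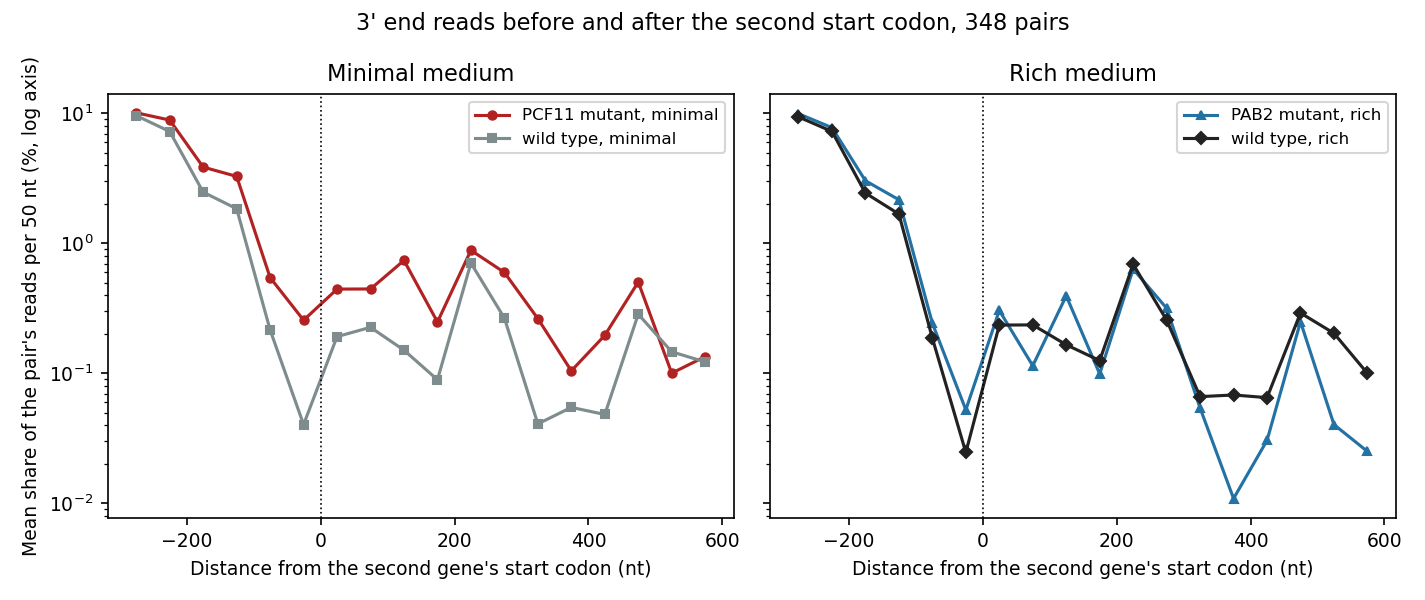
Mean share of a pair's reads in 50-nt bins (percent, log axis) against the distance from the second gene's start codon, over 348 pairs, for each mutant and its wild type. The bin just before the start codon is the lowest of the gap in all 4 libraries, at 0.257% in the PCF11 mutant and 0.0404% in wild type on minimal medium.

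More pairs had a larger share of reads in the second gene in the PCF11 mutant than had a smaller one. Of 353 pairs with at least 100 reads in both libraries of this comparison, 34 had an overrun share at least 10 percentage points higher in the mutant (9.63%) and 6 had one at least 10 points lower (1.7%). The median change was 0.63 points (quartiles over pairs 0 and 2.63), with 251 pairs higher, 81 lower and 21 equal. It was 0.0382 points with only the initial 300 nt of the second gene, 0.128 without positions of a single read and 0.148 with at least 500 reads. The median share of these 353 pairs was 1.40% in the PCF11 mutant and 0.275% in wild type on minimal medium. The count differed with the read minimum, which selects by depth and by expression of the first gene, and these were not separated. Of the 97 pairs with at least 500 reads in both libraries, 1 was past 10 points. Of 834 pairs with at least 20 reads, 189 were past that limit. The count was 14 of 339 pairs with only the initial 300 nt of the second coding region counted, and 5 of 68 pairs with no overlapping gene in the gap.

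**Figure D2:**
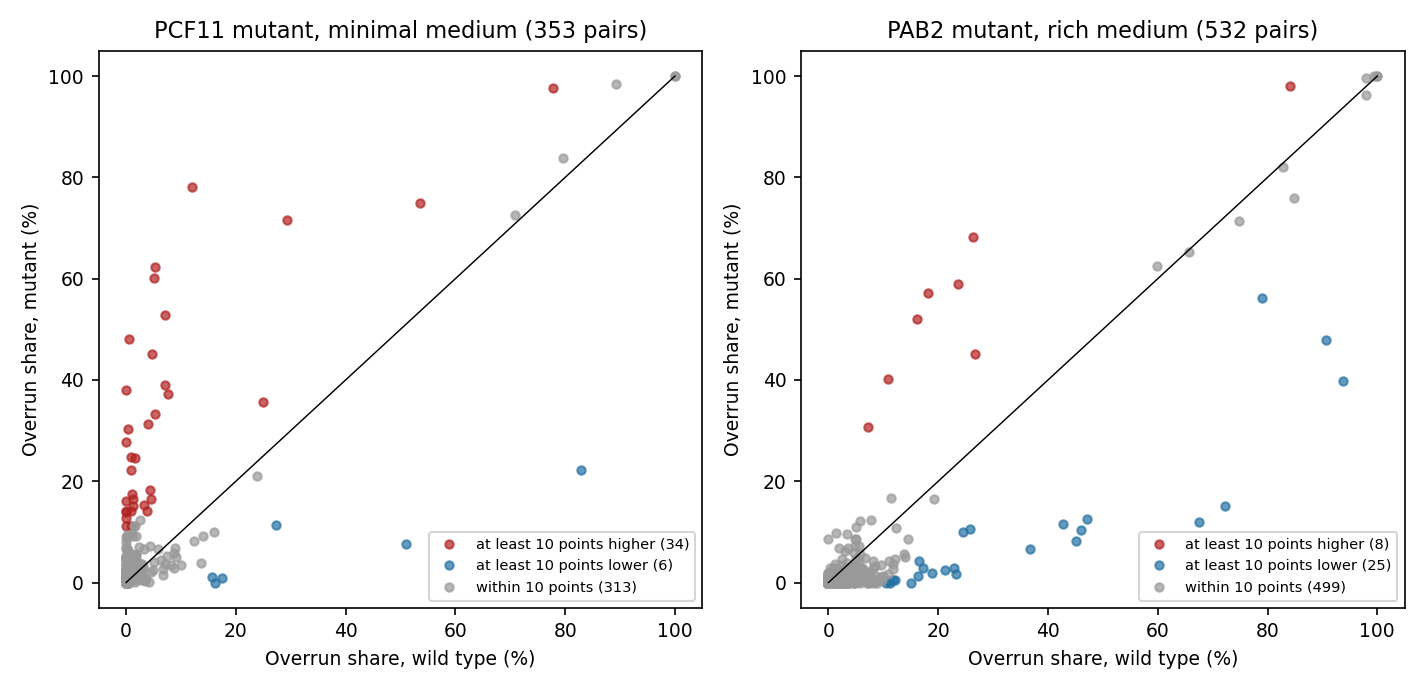
Overrun share in the mutant (y axis, percent) against wild type in the same medium (x axis, percent), 1 point per pair, for 353 pairs in minimal and 532 pairs in rich medium, with the line of equal shares. In the PCF11 panel 34 pairs lie at least 10 points above the line and 6 below it, and in the PAB2 panel 8 lie above and 25 below.

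The largest rise of the 353 pairs was at eif21-smg1, where a translation initiation factor gene precedes smg1 680 nt downstream on chromosome II, which codes for a core protein of the spliceosomal snRNPs. Its overrun share was 78.0% in the PCF11 mutant (96 of 123 reads) and 12.03% in wild type on minimal medium (16 of 133 reads). It was 57.1% in the PAB2 mutant (228 of 399 reads) and 18.1% in wild type on rich medium (47 of 260 reads). Both mutants were above both wild-type libraries. Nearly all of these reads shared the printed smg1 site, 135 nt into the coding region: 94 of 96 in the PCF11 mutant and 16 of 16 in wild type on minimal medium, and 228 of 228 in the PAB2 mutant and 47 of 47 in wild type on rich medium. The site was thus used in every library. Scaled to library size, it held 44.0 CPM in the PCF11 mutant and 5.14 CPM in wild type on minimal medium. It held 54.2 CPM in the PAB2 mutant and 11.8 CPM in wild type on rich medium. Both its level and its share of the pair's reads were thus higher in the mutants.

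The pair cgr1-cdd1 had the same pattern in both mutants. Here a ribosome biogenesis gene lies 309 nt before cdd1, the gene of cytidine deaminase. The overrun share was 71.7% in the PCF11 mutant and 29.3% in wild type on minimal medium, and 68.3% in the PAB2 mutant and 26.3% in wild type on rich medium. The printed cdd1 site, 132 nt into the coding region, took 77 of 86 coding reads in the PCF11 mutant and 39 of 39 in wild type on minimal medium. It took 251 of 258 in the PAB2 mutant and 31 of 35 in wild type on rich medium. Among the 348 pairs with enough reads in all libraries, these were the 2 pairs past 10 points in both mutants, 6.25% of the 32 such pairs of the PCF11 mutant and 66.7% of the 3 of the PAB2 mutant.

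At pby1-icp55, 232 nt apart, the second gene codes for a peptidase. The share was 60.2% in the PCF11 mutant (192 of 319 reads) and 5% in wild type on minimal medium (27 of 540 reads), and 9.68% in the PAB2 mutant and 3.40% in wild type on rich medium. The printed icp55 site held 152 reads in the PCF11 mutant and 10 in wild type on minimal medium, and 98 in the PAB2 mutant and 8 in wild type on rich medium. Reads past the stop codon of icp55 came to 41.6 CPM in the PCF11 mutant and 245.5 CPM in wild type on minimal medium, so the second gene's own 3' end was lower while reads inside it were higher.

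At other pairs second-gene reads were high in the PCF11 mutant and low in the other 3 libraries. At ani1-meu14 a prolyl isomerase gene precedes meu14, a gene for a sporulation protein. The meu14 coding region held 171 reads in the PCF11 mutant and 1 in wild type on minimal medium, and 8 in the PAB2 mutant and 6 in wild type on rich medium, beside 392, 375, 1118 and 964 gap reads. Scaled to library size, the gap reads came to 183.4 CPM in the PCF11 mutant and 120.5 CPM in wild type on minimal medium. Of the 171 mutant reads in meu14, 165 lay at the printed site 139 nt into the coding region. At nrk1-prp5 the coding region of prp5, for a member of the Prp19 splicing complex, held 40 reads in the PCF11 mutant and 0 in wild type on minimal medium, and 1 in either library in rich medium. At pap1-atg12 the coding region of atg12, for a ubiquitin-like autophagy protein, held 82 reads in the PCF11 mutant and 10 in wild type on minimal medium, and 7 in the PAB2 mutant and 7 in wild type on rich medium.

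Of 2 pairs the second gene itself acts in transcription or RNA decay. At hmo1-rpb1 the coding region of rpb1, for the largest subunit of RNA polymerase II, held 52 reads in the PCF11 mutant and 2 in wild type on minimal medium, and 0 in the PAB2 mutant and 10 in wild type on rich medium. Gap reads numbered 56 in the PCF11 mutant and 450 in wild type on minimal medium. No rpb1 site dominated, since the most used one, 3123 nt into the gene, held 11 of the 52 reads. Reads past the rpb1 stop codon came to 161.9 CPM in the PCF11 mutant and 60.4 CPM in wild type on minimal medium. They came to 44.9 CPM in the PAB2 mutant and 43.6 CPM in wild type on rich medium. At spo20-rrp6 the coding region of rrp6, for a nuclease of the nuclear exosome, held 93 reads in the PCF11 mutant and 25 in wild type on minimal medium, and 18 in the PAB2 mutant and 22 in wild type on rich medium. Of these, 85 and 18 reads lay at the printed site on minimal medium, and 15 and 19 on rich medium, mutant before wild type. Reads past the rrp6 stop codon were also higher, with 327.5 CPM in the PCF11 mutant and 20.2 CPM in wild type on minimal medium, against 33.5 CPM in the PAB2 mutant and 24.1 CPM in wild type on rich medium.

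Among pairs with 100 reads in all 4 libraries, the rest of the 10 largest rises were pgr1-SPBC17A3.08, with 52.8% in the PCF11 mutant and 7.06% in wild type on minimal medium, and ost1-pdt1, with 45.1% and 4.78% in the same order. The pdt1 gene codes for a manganese transporter, and its main site, 338 nt into the gene, held 83 reads in the PCF11 mutant and 54 in wild type on minimal medium. In that pair gap reads came to 55.2 CPM in the PCF11 mutant and 396.5 CPM in wild type on minimal medium, and coding reads to 45.4 CPM and 19.9 CPM. The higher share at this pair therefore went mainly with fewer gap reads. The second largest rise of the 353 pairs, picked out after its values were seen, was at cmr2-tif52, which had under 100 reads in wild type on rich medium. Its share was 62.3% in the PCF11 mutant and 5.22% in wild type on minimal medium.

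**Figure D3:**
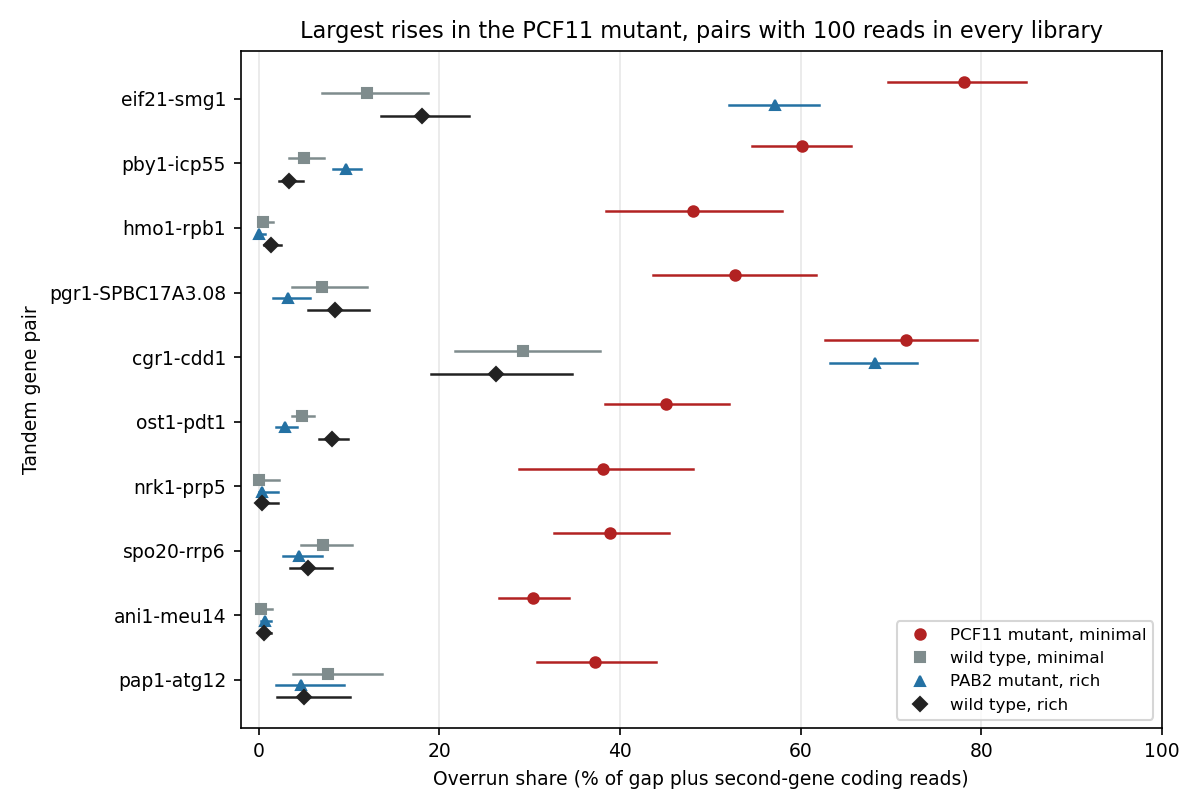
Overrun share (percent, x axis) of the 10 pairs with the largest rise in the PCF11 mutant among those with 100 reads in each of the 4 libraries, with exact binomial 95% intervals that cover counting error only. The PCF11 mutant lies above wild type on minimal medium for each pair, and the PAB2 mutant lies far above wild type on rich medium for eif21-smg1 and cgr1-cdd1, at 57.1% and 68.3%.

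Both terms of the share moved among the 34 pairs. Second-gene coding reads had a median of 22.2 CPM in the PCF11 mutant and 2.25 CPM in wild type on minimal medium, and were higher in 34 of 34 pairs and at least 2-fold higher in 33. Gap reads had a median of 54.3 CPM in the PCF11 mutant and 86.1 CPM in wild type on minimal medium, and were lower in 24 pairs and at least 2-fold lower in 11. With gap reads held at their wild-type CPM, 23 of the 34 pairs would still have been past 10 points. The pairs were chosen on this contrast, so these values describe them and test nothing. The most used second-gene position lay in a coding exon in 31 pairs and in an intron in 3, and within 300 nt of the start codon in 16. That site held over 50% of the second gene's coding reads in 25 pairs, and wild type on minimal medium had no read at it in 14.

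Pairs close to the 10-point limit were rps2502-SPAC694.04C, with a change of 10.23 points, and lub1-noc3, with 9.91 points. Gaps of the 34 pairs had a median of 637.5 nt, against 628 nt for the other tested pairs. The first genes' 3' reads, counted from the stop codon to 500 nt past the annotated end or to the next start codon, had a median log2 change of -0.80 over the 34 pairs, with 0 at least 2-fold higher and 12 at least 2-fold lower. Of the other tested first genes 22.5% were higher and 12.1% lower, and of all coding genes 21.8% and 27.1%. These 3' reads largely are the gap reads by which the 34 pairs were chosen, so their fall is partly set by that choice. For the second genes, 23 of 34 passed the minimum of 50 reads on average, with a median log2 change of 0.06.

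Falls in the PCF11 mutant were few, and some second genes lost a site that wild type used. At art1-ppr3 the coding region of ppr3, for a pentatricopeptide repeat protein, held 9 reads in the PCF11 mutant and 76 in wild type on minimal medium, and 16 in the PAB2 mutant and 173 in wild type on rich medium. The overrun share was 7.63% and 51.0%, and 12.03% and 67.6%, in the same order. A site 542 nt into ppr3 took 6 of 9 and 75 of 76 of these reads, and 11 of 16 and 158 of 173. At dni1-hem4, which had under 100 reads in the PAB2 mutant and was picked out after its value was seen, the share was 22.2% in the PCF11 mutant and 82.9% in wild type on minimal medium. The other falls past 10 points were mug168-mef2, mug176-hhp1, rdi1-tom20 and ker1-sct1. These 4 and art1-ppr3 were also at least 10 points lower in the PAB2 mutant. Among the 348 pairs with 100 reads in all 4 libraries, that is 100% of the 5 falls of the PCF11 mutant and 45.5% of the 11 falls of the PAB2 mutant.

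The PAB2 mutant had lower overrun shares in 324 of 532 pairs. Of 532 pairs with enough reads in both rich-medium libraries, 8 had an overrun share at least 10 points higher in the mutant (1.5%) and 25 at least 10 points lower (4.7%). The median change was -0.26 points (quartiles -1.56 and 0), with 112 pairs higher, 324 lower and 96 equal. The median was 0 with only the initial 300 nt of the second gene and 0 without positions of a single read. The median share of these pairs was 0.176% in the PAB2 mutant and 0.796% in wild type on rich medium. No pair fell by 10 points among the 195 with at least 500 reads in both libraries. With the initial 300 nt of the second coding region alone, 4 of 517 pairs fell by 10 points. The main wild-type site of these 25 pairs had a median distance of 990 nt from the start codon.

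Among pairs with 100 reads in all 4 libraries, the largest falls were at art1-ppr3, ght2-prp39, nsp1-atg44, mug168-mef2 and sdg1-SPAC12B10.01C. Of the 532 pairs, apl3-drp1 fell most, with 15.2% in the PAB2 mutant and 72.3% in wild type on rich medium, and 6 others outside the naming rule fell by more than nsp1-atg44. It was picked out after its values were seen. The prp39 gene codes for a protein that associates with the U1 snRNP. Its coding region held 19 reads in the PAB2 mutant and 109 in wild type on rich medium, and 20 in the PCF11 mutant and 56 in wild type on minimal medium. The atg44 gene, for the mitochondrial fission factor mitofissin, moved in opposite directions in the mutants. Its coding region held 1203 reads in the PCF11 mutant and 231 in wild type on minimal medium, and 129 in the PAB2 mutant and 318 in wild type on rich medium. Most of these reads shared a site 54 nt into the gene, with 1148, 221, 88 and 310 reads in that order. The pair had few gap reads, such as 30 in the PCF11 mutant and 66 in wild type on minimal medium.

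Of the 8 rises of the PAB2 mutant, eif21-smg1 and cgr1-cdd1 are described above. At pfl2-SPAPB18E9.05C the share was 98.0% in the PAB2 mutant and 84.1% in wild type on rich medium, with 17 and 158 gap reads. The remaining 5 fell outside the rule for named pairs and were picked out after their values were seen. They were png2-atx1, met9-spc3, pcr1-rpl801, utr4-SPAC644.09 and mrpl3-rpp102, and in all but pcr1-rpl801 the main second-gene site of the mutant lay in an intron. At png2-atx1 the intronic site, 156 nt into the gene of the copper chaperone Atx1, held 260 reads in the PAB2 mutant and 37 in wild type on rich medium, and 26 in the PCF11 mutant and 59 in wild type on minimal medium. At met9-spc3 the intronic site in spc3, for a signal peptidase subunit, held 91 reads in the PAB2 mutant and 7 in wild type on rich medium, and 11 and 5 in minimal medium. Over all second genes, introns took 15.5% of coding-span reads in the PAB2 mutant (14.9% to 16.1%) and 9.52% in wild type on rich medium (9.14% to 9.91%). They took 5.74% in the PCF11 mutant and 10.4% in wild type on minimal medium, and made up 5.82% of the coding span. Second genes were not particular in this. Over all coding genes introns took 20.5% in the PAB2 mutant and 12.7% in wild type on rich medium. On minimal medium they took 6.83% in the PCF11 mutant and 14.1% in wild type. With a divergent upstream neighbour the rich-medium values were 26.7% and 14.2%, mutant before wild type. Intron reads of second genes came to 543.7 CPM in the PAB2 mutant and 537.3 CPM in wild type on rich medium, while coding exon reads came to 2970 CPM and 5106 CPM in the same order. The higher intron share thus went with fewer exon reads.

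Within the gap, 3' ends lay further from the first stop codon in both mutants. The gap end position is the read-weighted mean distance past the stop codon of the reads in the gap, taken where both libraries had 100 or more gap reads. It was at least 50 nt later in the PCF11 mutant in 59 of 328 pairs, or 18.0%, and at least 50 nt earlier in 1. Among all coding genes, with the window set to the next start codon or 1000 nt, 29.3% were later and 0.235% earlier by that much, so the count among pairs lay under this background of longer windows. The median shift of the pairs was 8.38 nt (quartiles 1.52 and 37.4), and 281 of 328 moved later. In the PAB2 mutant 34 of 504 pairs, or 6.75%, were at least 50 nt later and 0 earlier, against 12.6% and 0.0995% of all coding genes. The median shift was 2.89 nt (quartiles 0.187 and 12.5), and 397 of 504 pairs moved later. Between wild type on minimal and on rich medium the median shift was 1.25 nt, and 331 of 483 pairs moved later.

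With the same window for all genes, the first 400 nt past the stop codon, the difference from other genes was small. For the PCF11 mutant 27 of 240 first genes of pairs (11.3%) and 58 of 721 other coding genes (8.04%) were at least 50 nt later. For the PAB2 mutant these counts were 9 of 375 (2.4%) and 15 of 1217 (1.23%). The median shift of first genes was 4.91 nt in the PCF11 mutant and 1.56 nt in the PAB2 mutant. It was 1.28 nt between wild type on minimal and on rich medium, near the PAB2 value. This window was added after the data had been seen. Pairs on either side of the 50-nt limit were sks2-dus2 at 50.5 nt and ado1-wbp1 at 48.2 nt in the PCF11 mutant, and spo20-rrp6 at 50.1 nt and his1-rec10 at 48.9 nt in the PAB2 mutant.

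At several pairs the large shifts were a change from a near to a far site. The 2 sites of atp5-pgm2 and wos2-abc1 are shown to place the switch, the site nearer the stop codon before the farther one, in the format used above.
atp5-pgm2, 182 nt past the stop codon, III:2268687-2268716, minus strand: gccttacctcctcaatatttcagtttcatt
atp5-pgm2, 829 nt past the stop codon, III:2268040-2268069, minus strand: actttttgtttttgagtctattttattaaa
wos2-abc1, 48 nt past the stop codon, I:4468173-4468202, minus strand: ccattttatcttttacgtttcatacaaaat
wos2-abc1, 451 nt past the stop codon, I:4467770-4467799, minus strand: taaattttaaacagagtcatttaattgagg

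At atp5-pgm2, where a mitochondrial ATP synthase gene precedes the gene of a phosphoglucomutase, both mutants used the far site. It held 312 reads, or 54.3% of gap reads, in the PCF11 mutant and 17, or 2.54%, in wild type on minimal medium. It held 524, or 52.5%, in the PAB2 mutant and 18, or 2.99%, in wild type on rich medium. The gap end position was 552.8 nt in the PCF11 mutant and 218.4 nt in wild type on minimal medium, and on rich medium 607.9 nt with mutant PAB2 and 227.1 nt in wild type. The far site lay 135 nt before the start codon of pgm2, yet the pgm2 coding region held 25 reads in the PCF11 mutant and 7 in wild type on minimal medium, and 2 and 12 in rich medium. The switch between gap sites in the PAB2 mutant was thus not matched by more reads in the second gene.

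At wos2-abc1, where the gene of the p23 chaperone precedes a transporter gene, the far site held 9664 of 9714 gap reads in the PCF11 mutant and 30 of 713 in wild type on minimal medium. It held 155 of 917 in the PAB2 mutant and 37 of 1101 in wild type on rich medium. The near site held 18 reads in the PCF11 mutant against 504 in its wild type, and 471 in the PAB2 mutant against 772. Total gap reads of wos2 in the PCF11 mutant were thus many times those of any other library, and nearly all at 1 site. The abc1 coding region held 5 reads in the PCF11 mutant against 4, and 16 in the PAB2 mutant against 32.

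At SPAC29A4.02C-aif1, where a translation elongation factor gene precedes a flavoprotein gene, the far site at 746 nt held 225 of 430 gap reads in the PCF11 mutant and 8 of 591 in wild type on minimal medium. In rich medium it held 15 of 741 in the PAB2 mutant and 6 of 920 in wild type. The aif1 coding region held 54 reads in the PCF11 mutant and 0 in each of the other 3 libraries. At pgl1-pef1 a site at 858 nt, 104 nt before pef1, held 50 of 81 gap reads in the PCF11 mutant and 0 of 215 in wild type on minimal medium, and the pef1 coding region held 31 and 0 reads. With 81 gap reads this pair was under the minimum for the count of 328 pairs.

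At ker1-sct1 the PAB2 mutant put 206 of 283 gap reads at a site 591 nt past the stop codon, and wild type on rich medium put 36 of 180 there. The PCF11 mutant put 226 of 250 there, and wild type on minimal medium 17 of 91. At SPBP4H10.12-rps2302, which ends in a ribosomal protein gene with a near-identical copy elsewhere, the site at 364 nt held 90 of 251 reads in the PAB2 mutant and 21 of 294 in wild type on rich medium. It held 99 of 131 in the PCF11 mutant and 28 of 195 in wild type on minimal medium. In pvg1-nnt1 and rpa43-atg3 the most used gap site was the same, 469 nt past the stop codon in each, in all 4 libraries, and its share was higher in the mutants. Of 325 pairs with enough gap reads in all libraries, 59 were at least 50 nt later in the PCF11 mutant and 16 in the PAB2 mutant, and 13 were in both lists. That is 22.0% of the PCF11 list and 81.3% of the PAB2 list.

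Gap length went with later gap ends and with the pooled overrun share. Above 200 nt, pooled overrun shares were lower in longer gaps in every library. For gaps of over 200 and up to 400 nt they were 11.3% in the PCF11 mutant and 9.21% in wild type on minimal medium, and 6.73% in the PAB2 mutant and 8.70% in wild type on rich medium. For gaps of over 700 nt they were 1.74% and 1.63%, and 0.539% and 1.58%, in the same order. Medians over pairs with 100 reads in every library fell steadily with gap length only in the PCF11 mutant. For gaps up to 400, 700 and 1000 nt they were 1.71%, 1.40% and 1.18% there. In wild type on minimal medium they were 0.641%, 0.203% and 0.275%. They were 0.556%, 0.0295% and 0.0706% in the PAB2 mutant, and 0.752%, 0.423% and 0.741% in wild type on rich medium. In gaps of 1 to 200 nt the pooled share lay between 42.7% and 51.8% in every library and bin, but these 70 pairs had few reads, and 1 of them had 100 reads in all libraries. In the PCF11 mutant the gap end lay at least 50 nt later in 2 of 37 pairs with gaps of over 200 and up to 400 nt, 24 of 170 with gaps up to 700 nt and 33 of 121 with longer gaps. For the PAB2 mutant these counts were 0 of 61, 14 of 253 and 20 of 188. A short gap leaves less room for a shift of 50 nt, and this was not corrected for. The share of pairs past 10 points in overrun in the PCF11 mutant, 17.5%, 7.87% and 9.70% over the same lengths, did not keep that order.

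**Figure D4:**
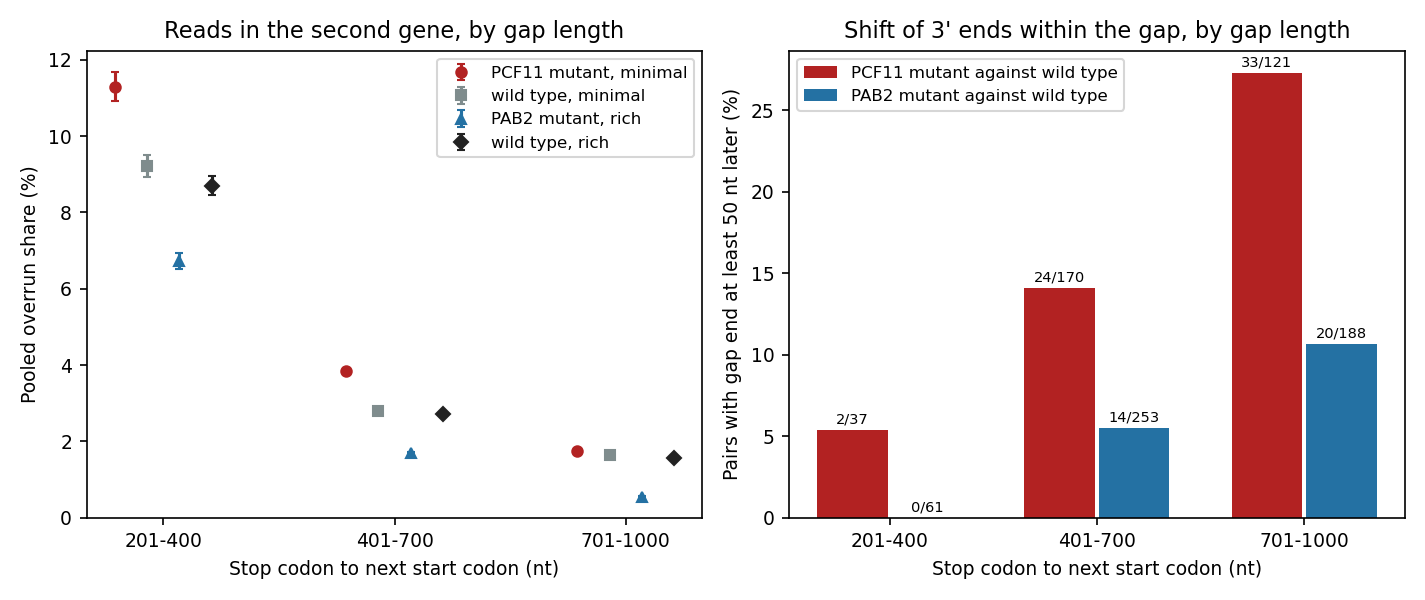
Pooled overrun share with 95% binomial intervals (left, percent) and share of pairs with a gap end at least 50 nt later than in wild type (right, percent, with counts), by the distance from stop to start codon in nt. The pooled share is lowest in the longest gaps in all 4 libraries, and later gap ends are most common there, at 33 of 121 pairs in the PCF11 mutant and 20 of 188 in the PAB2 mutant.

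Highly expressed first genes ended before the second gene in all libraries. The pairs with the most gap reads were fba1-prp38 (glycolytic aldolase), gly1-bub3 (threonine aldolase), pma1-SPAC1071.09C (plasma membrane proton pump), and rpl1902-mug122 and rpl1202-mlo1 (ribosomal proteins). At fba1-prp38 the gap held 43645 reads in the PCF11 mutant and 24836 in wild type on minimal medium, and 63345 in the PAB2 mutant and 39388 in wild type on rich medium. The prp38 coding region held 4 reads in the PCF11 mutant and 0 in the other libraries. The highest overrun share of these 5 pairs was 0.105%, for gly1-bub3 in the PCF11 mutant, against 0.00689% in wild type on minimal medium.

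The highest overrun shares in wild type on rich medium belonged to pairs with a strong site inside the second coding region in each library. Which transcript these reads came from was not tested. In uds1-SPBC27.05 the share was 100% in all 4 libraries, with no gap read at all, and in tim18-SPBC29A3.21 it was 100% in all but wild type on rich medium, which had 2 gap reads. A site 235 nt into SPBC29A3.21, an uncharacterized gene of 303 nt, held 854 reads in the PCF11 mutant and 2492 in wild type on minimal medium, and 3367 and 3434 in rich medium. The second genes of uds1-SPBC27.05 and pfl2-SPAPB18E9.05C were likewise short, 327 and 273 nt. In pof12-rpl1901 the second gene codes for a ribosomal protein whose 3' end held 4743 CPM in the PCF11 mutant and 1844 CPM in wild type on minimal medium, and 2699 CPM and 2630 CPM in rich medium. Its coding reads therefore stand beside a far larger number of reads at its own 3' end, and it has a near-identical copy, rpl1902, with which reads may be shared.

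Reads inside second genes were set beside those inside other genes. Coding-region reads were compared as log2 of reads plus 1 over the TMM-scaled library size, where the 4 libraries averaged 10 or more such reads. A gene could pass this minimum through 1 library alone, and 305 of 1407 second genes passed. In the PCF11 mutant 106 second genes, or 34.8%, were at least 2-fold higher and 87, or 28.5%, at least 2-fold lower. Among all coding genes 26.4% were higher and 38.5% lower, and among genes whose upstream neighbour is divergent 19.7% and 44.5%. The median log2 change was -0.17 for second genes, -0.72 for genes with a divergent neighbour and -0.55 for all coding genes. In the PAB2 mutant 18 second genes (5.90%) were higher and 181 (59.3%) lower, against 4.91% and 66.3% of all coding genes, so both counts were near that background. With total reads in place of TMM scaling, 71 second genes (23.3%) were higher in the PCF11 mutant, against 16.6% of all coding genes.

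**Figure D5:**
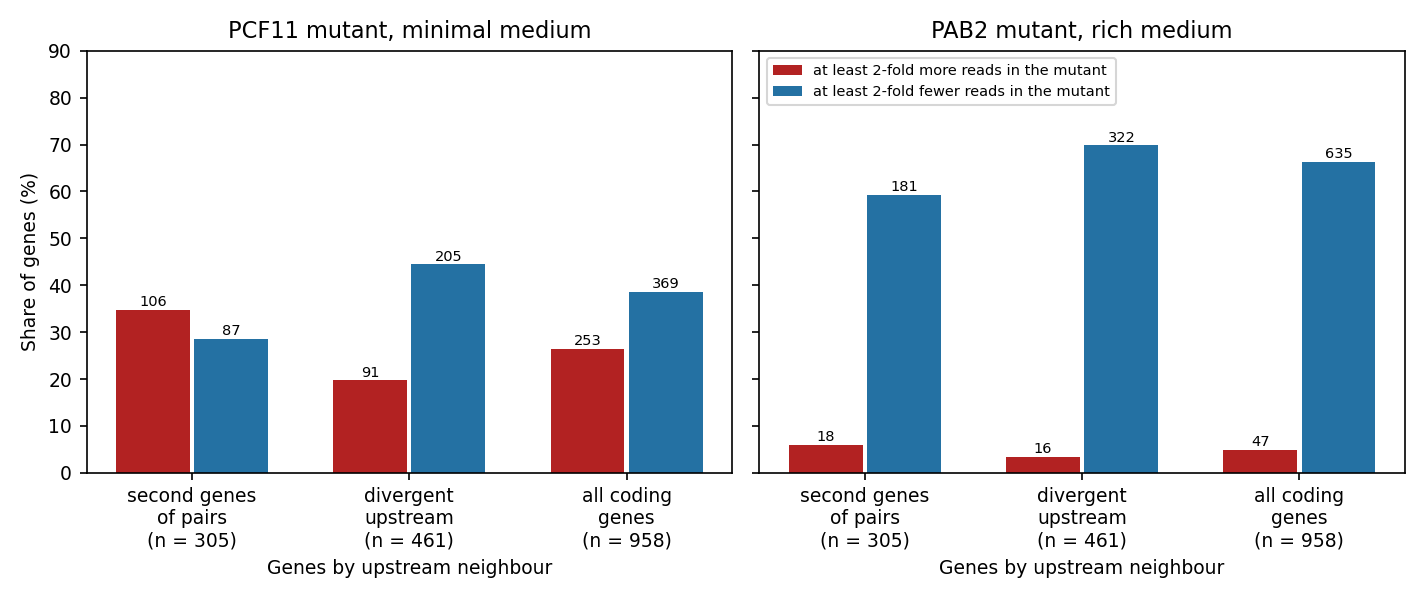
Share of genes (percent, with counts above the bars) with at least 2-fold more or fewer coding-region reads in each mutant, for second genes of tandem pairs, genes with a divergent upstream neighbour and all coding genes. In the PCF11 mutant 34.8% of second genes and 19.7% of genes with a divergent neighbour are at least 2-fold higher, and in the PAB2 mutant most genes of every class are lower.

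The level of the second gene's own 3' end did not follow. It was compared where the 4 libraries averaged 50 or more reads past the stop codon, a minimum that 851 of 1407 second genes passed. Of these, 199 in the PCF11 mutant were at least 2-fold higher (23.4%) and 219 lower (25.7%), against 21.8% and 27.1% of all coding genes. Of the same genes, 47 in the PAB2 mutant were higher (5.52%) and 20 lower (2.35%), against 5.81% and 3.28%. Counts of both directions were thus near the background in both mutants. The median log2 change was -0.09 in the PCF11 mutant, beside -0.16 for all coding genes, and 0.13 in the PAB2 mutant, beside 0.10. With total reads in place of TMM scaling, the median of all coding genes moved to -1.04 in the PCF11 mutant and -0.12 in the PAB2 mutant, and that of second genes to -0.97 and -0.09.

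Wild type changed little between media. Of 518 pairs, 5 had an overrun share at least 10 points higher in minimal medium (0.965%) and 8 had one lower (1.54%), with a median change of -0.02 points. The gap end was at least 50 nt later in 1 of 483 pairs and earlier in 2, against 0.968% and 1.24% of all coding genes. Coding-region reads were at least 2-fold higher in minimal medium in 11 of 305 second genes and lower in 41, against 4.7% and 12.4% of all coding genes. Reads at the second gene's 3' end were higher in 8 of 851 and lower in 9, against 2.7% and 1.22%. This comparison used the wild-type libraries that the mutants were set against, so it is not independent of those comparisons.

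Sequence motifs were sought at the most used wild-type gap site of the 944 pairs with at least 50 wild-type gap reads. Both were sought on the genes' strand, in windows that do not overlap. GTA was present within 30 nt downstream at 515 sites, or 54.6%, against 28.1% at positions 200 nt upstream and 38.3% at positions 200 nt downstream. AATAAA lay 10 to 35 nt upstream of 154 sites, or 16.3%, against 1.17% and 3.39%. Of the 34 pairs with a higher overrun share in the PCF11 mutant, 18 (52.9%) had GTA and 2 (5.88%) had AATAAA, beside 59.8% and 16.5% of the other tested pairs. Of the 59 pairs with a later gap end in that mutant, 36 (61.0%) had GTA and 5 (8.47%) had AATAAA, beside 59.9% and 16.4% of the rest. These are small counts, and a match describes letters, not a working site.

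The cleavage and termination list held 40 genes, of which 22 belonged to a pair. Some listed names belong in fission yeast to other proteins: res2 to a cell cycle transcription factor, clp1 and pab1 to phosphatase proteins, fip1 to an iron permease and hrp1 to a chromatin factor. In the PCF11 mutant 8 of 26 genes with enough reads, pab1 among them, had at least 2-fold more 3' reads and 10 had fewer, beside 21.8% and 27.1% of all coding genes. In the PAB2 mutant 2 had more and 1 had fewer, beside 5.81% and 3.28%. The list had 27 pairs, 4 of them with 100 reads in every library: spo20-rrp6, hmo1-rpb1, gcs1-res2 and rpp101-rna15. At rpp101-rna15, where a ribosomal stalk gene precedes the gene of an RNA-binding cleavage factor, the gap end lay at 283.9 nt in the PCF11 mutant and 118.3 nt in wild type on minimal medium. On rich medium it lay at 116.7 nt with mutant PAB2 and at 98.1 nt in wild type. The rna15 coding region nevertheless held 3, 0, 1 and 0 reads in these libraries, so the later ends stayed in the gap.

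At cdk9-mei4, a kinase gene before the meiotic transcription factor gene mei4, gap reads numbered 0 in the PCF11 mutant and 32 in wild type on minimal medium, and 154 in the PAB2 mutant and 24 in wild type on rich medium. The mei4 coding region held 450 reads in the PCF11 mutant and 48 in wild type on minimal medium, and 52 in the PAB2 mutant and 35 in wild type on rich medium. Reads past the mei4 stop codon came to 142.2 CPM in the PCF11 mutant and 23.5 CPM in wild type on minimal medium, and 25.9 CPM in the PAB2 mutant and 5.02 CPM in wild type on rich medium. The mei4 reads of the PCF11 mutant were therefore higher both inside and at the end of the gene. Wild type had 80 reads for the pair on minimal and 59 on rich medium, under the minimum of 100, so the pair was left out of the counts.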

How the data were processed

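The authors deposited counts: whole numbers of reads at each cleavage position of either strand, without a recorded normalization. Libraries were made from total RNA by amplifying the 3' ends of polyadenylated transcripts, per the labels' protocols. Alignment was with Bowtie2 to ASM294v2, per the submitters' processing notes, with no version given. The reference genome used here names itself ASM294v3 in its header. Where 20 or more reads shared a position, an A followed it at 0.184% to 0.727% of such positions per chromosome and library, so positions and reference were taken to share coordinates. The pairs, gene list and measures were chosen with earlier results of these data known.

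Reads were counted by strand in each gap and each second coding region, with python 3.11.15, numpy 2.4.6 and pandas 2.3.3. Library scaling used TMM factors from edgeR 4.0.16 in R 4.3.3. Calls were fixed at 10 percentage points, 50 nt or 2-fold. Positions within 24 nt of the most used one were joined as a site. Binomial 95% intervals cover counting error only, since reads carry no molecular identifiers. The scripts were tested on simulated data. Named pairs had at least 100 reads in each library and were the 10 largest rises and 5 largest falls of overrun share and the 5 largest later gap ends per mutant, the 5 highest shares in wild type on rich medium, the 5 with most gap reads, and those holding a listed gene. The 4 S. cerevisiae libraries were not used. Alternatives were other read minimums, parts of the second gene, pair definitions, scaling and filters.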

Additional observations from a re-analysis of the deposited data

Results flagged for a closer look

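Reads on the strand opposite to the pair entered no overrun share or gap end position. Their share stood above wild type in both mutants, as given near the start of the results. In the gaps of all 1407 pairs they made up 12.3554% of the reads of both strands in the PCF11 mutant (61951 reads, 12.3% to 12.4%), and 2.04% in wild type on minimal medium (10706 reads, 2.00% to 2.08%). In the PAB2 mutant they made up 5.21992% (49560 reads, 5.18% to 5.26%), and 1.92% in wild type on rich medium (15155 reads, 1.89% to 1.95%). Genes on the opposite strand can overlap a gap, and their share of these reads was not measured.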

How the results depend on the processing

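No paired analysis was possible because each fission yeast group has 1 library and no test was made, and for the same reason no replicate could be left out. Over 144 alternative values of 21 results, 75 stayed within the set limits, 66 moved and 3 changed sign. For counts these limits did not allow for the number of pairs or genes tested, which changed with the setting. The causes were not tested beyond what each setting does to the number of pairs or reads. Settings for the pairs past a limit, for gaps free of any overlapping gene and for the initial 400 nt were added after seeing the data.

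In the PCF11 mutant the median change of overrun share was 0.0382 points with the initial 300 nt of the second gene, 1.29 with at least 20 reads, 0.148 with at least 500 reads, 0.128 without single-read positions and 0.238 with no overlapping gene in the gap. Pairs at least 10 points higher numbered 34 of 353 in the main setting and 14 of 339 for the initial 300 nt. They numbered 189 of 834 for 20 reads, 1 of 97 for 500 reads and 5 of 68 with no overlapping gene. Pairs at least 10 points lower numbered 2 of 339 for the initial 300 nt, 63 of 834 for 20 reads and 0 of 97 for 500 reads. The median shift of the gap end was 14.4 nt with 20 reads, 5.70 nt with 500 reads, 4.79 nt with no overlapping gene and 4.91 nt in the initial 400 nt. In that order 185 of 720, 12 of 92, 7 of 63 and 27 of 240 pairs were at least 50 nt later. The main setting had 59 of 328. Second genes with at least 2-fold more coding-region reads numbered 106 of 305 in the main setting and 685 of 1407 with no filter. They numbered 33 of 83 with the initial 300 nt and 63 of 211 without single-read positions. The shares of all coding genes were not computed for these alternatives. The median log2 change of second-gene 3' reads was -0.97 with total reads in place of TMM.

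In the PAB2 mutant the median change of overrun share was 0 points with the initial 300 nt, -0.49 with 20 reads, -0.0404 with 500 reads, 0 without single-read positions and -0.13 with no overlapping gene. Pairs at least 10 points higher numbered 37 of 1043 with 20 reads, 1 of 195 with 500 reads and 1 of 93 with no overlapping gene. Without pairs whose second gene had more reads than the first, they numbered 3 of 408. Pairs at least 10 points lower numbered 4 of 517 with the initial 300 nt, 180 of 1043 with 20 reads and 0 of 195 with 500 reads. They numbered 13 of 408 without second genes above the first and 5 of 93 with no overlapping gene. The median shift of the gap end was 5.08 nt with 20 reads, 1.12 nt with 500 reads, 2.01 nt with no overlapping gene and 1.56 nt in the initial 400 nt. In that order 100 of 950, 5 of 192, 2 of 90 and 9 of 375 pairs were at least 50 nt later. The main setting had 34 of 504. With no filter, 77 of 1407 second genes had at least 2-fold more coding-region reads, beside 18 of 305 in the main setting. The median log2 change of second-gene 3' reads turned to -0.0894 with total reads.

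Between minimal and rich medium in wild type, pairs at least 10 points higher numbered 2 of 495 with the initial 300 nt. They numbered 27 of 1053 with 20 reads and 0 of 164 with 500 reads. Without second genes above the first they numbered 2 of 397, and with no overlapping gene 1 of 95. Of the same pairs, 1, 95, 0, 4 and 1 were at least 10 points lower, in that order. The median shift of the gap end was 0.498 nt with no overlapping gene. Pairs at least 50 nt later numbered 11 of 944 with 20 reads and 0 of 162 with 500 reads. They numbered 0 of 88 with no overlapping gene and 0 of 364 in the initial 400 nt. Second genes with at least 2-fold more coding-region reads numbered 6 of 305 with a pseudocount of 5 and 153 of 1407 with no filter. They numbered 7 of 83 with the initial 300 nt and 7 of 211 without single-read positions. The median log2 change of second-gene 3' reads turned to 0.0330 with total reads and 0.0208 with no filter. The read minimum also selects pairs by how strongly the first gene is expressed, and depth and expression were not separated.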
